A study of Rattus norvegicus with 12 samples.

Results

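Keratins are the intermediate filament proteins of epithelia. The genes described here were all those whose symbol is Krt followed by a number, with the symbol taken from the RefSeq accession that the array design gives each probe, and keratin-associated protein genes were left out. They numbered 44 of the 15154 named genes on the array, carried by 46 probes and 95 spots on each array. Of these, 25 were tested, because in 1 group or more all 4 arrays read a probe well above background, and 20 of the 25 were above it on all 12 arrays.

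RNA came from the bladder body of 12 male Fischer 344 rats, hybridised 1 animal to an array. The 4 young rats were 6 months old and ate normal food freely. The 4 old freely fed rats were 25 to 28 months old on the same diet, and the 4 old restricted rats, of the same ages, had been fed on 3 days a week from 6 weeks of age, an intake about 40% lower. The bladder body is a whole-organ sample of urothelium, muscle and connective tissue, so fewer cells of a type and less RNA per cell cannot be told apart.

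A keratin filament is built from pairs of a type I (acidic) and a type II (basic to neutral) chain, and partner genes are usually expressed together. In rats the type I genes lie in 1 cluster on chromosome 10 and the type II genes on chromosome 7, where the type I gene Krt18 also lies beside Krt8. Basal cells of stratified epithelia and of the urothelium make Krt5, Krt14 and Krt15. All urothelial layers make simple-epithelial keratins such as Krt7, Krt8, Krt18 and Krt19, and Krt20 marks the superficial umbrella cells. The Krt6 forms, Krt16 and Krt17 are low in many resting epithelia and are known for their induction by wounding, inflammation and hyperproliferation.

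Levels are given as log2 of the processed signal minus the 75th percentile of that array, so that 0 is a spot as bright as that percentile and each unit is a doubling. Brightness depends on the probe, and levels of different genes are therefore not compared. Changes were tested with limma over all 20425 features, and a gene was called where its Benjamini-Hochberg adjusted p was under 0.05. Young and old freely fed rats were on 1 slide, each group in a row of its own, so that age and row cannot be told apart. Restricted rats had a slide and a scan of their own, so that restriction and slide cannot be told apart. The 75th percentile of the signal lay between 3993 and 4892 on the 12 arrays, and the mean of the negative control spots was -9.08 in young, -10.2 in old freely fed and -9.69 in restricted rats. All 12 tested urothelial markers, among them the uroplakins Upk1a, Upk1b, Upk2 and Upk3a of the umbrella cell plaque, were well above background on every array.

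Krt6c, Krt5 and Krt24 were the keratins called between old and young freely fed rats, and their promoters are shown for that reason. Each runs from 250 bases before to 50 bases after the annotated start, as RefSeq gives it on assembly GRCr8, on the minus strand. The Krt6c promoter lies at chr7:134682704-134683003, that of Krt5 at chr7:134730520-134730819 and that of Krt24 at chr10:84733437-84733736. Capitals mark a match to TATANA, the core of a TATA box, on the gene's own strand.
Krt6c promoter: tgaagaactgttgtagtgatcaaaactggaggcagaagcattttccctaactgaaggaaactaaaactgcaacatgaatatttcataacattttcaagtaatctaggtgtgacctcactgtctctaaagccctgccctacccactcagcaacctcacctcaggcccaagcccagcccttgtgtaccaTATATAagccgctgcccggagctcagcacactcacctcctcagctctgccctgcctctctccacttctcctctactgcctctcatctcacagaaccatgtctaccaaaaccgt
Krt5 promoter: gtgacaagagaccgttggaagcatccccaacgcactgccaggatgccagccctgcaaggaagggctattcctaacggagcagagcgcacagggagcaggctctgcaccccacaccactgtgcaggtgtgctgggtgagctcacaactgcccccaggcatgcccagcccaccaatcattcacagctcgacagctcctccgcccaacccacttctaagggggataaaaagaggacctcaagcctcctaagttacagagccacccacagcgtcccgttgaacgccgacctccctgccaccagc
Krt24 promoter: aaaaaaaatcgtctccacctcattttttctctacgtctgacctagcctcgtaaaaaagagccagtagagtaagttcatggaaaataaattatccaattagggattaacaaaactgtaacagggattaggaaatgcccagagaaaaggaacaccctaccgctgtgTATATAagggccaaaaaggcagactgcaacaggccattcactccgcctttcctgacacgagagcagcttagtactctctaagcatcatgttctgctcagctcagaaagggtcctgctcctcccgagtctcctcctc
The match began 63 bases before the start in Krt6c and 86 bases before it in Krt24, and the Krt5 window held none. A promoter was given for 33 of the 44 keratins. Of these, 22 held TATANA on the gene strand, against 19.6% of 33469 promoters of the same length. The letters TGANTCA, the AP-1 element, were found on either strand in 2 keratin promoters, against 7.33% of all. These matches are a description and show no site of binding.

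Between young and old freely fed rats, Krt6c and Krt5 were higher and Krt24 was lower. Against young rats, old restricted rats had higher Krt6c, Krt5 and Krt75 and lower Krt24. Between restricted and freely fed old rats, Krt24 alone among the 25 tested keratins was called, and it was higher with restriction. No tested member of the simple-epithelial list was called in any of the 3 comparisons, including Krt7, Krt8, Krt18 and Krt19, which all urothelial layers share, and Krt20 of umbrella cells.

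**Figure D1:**
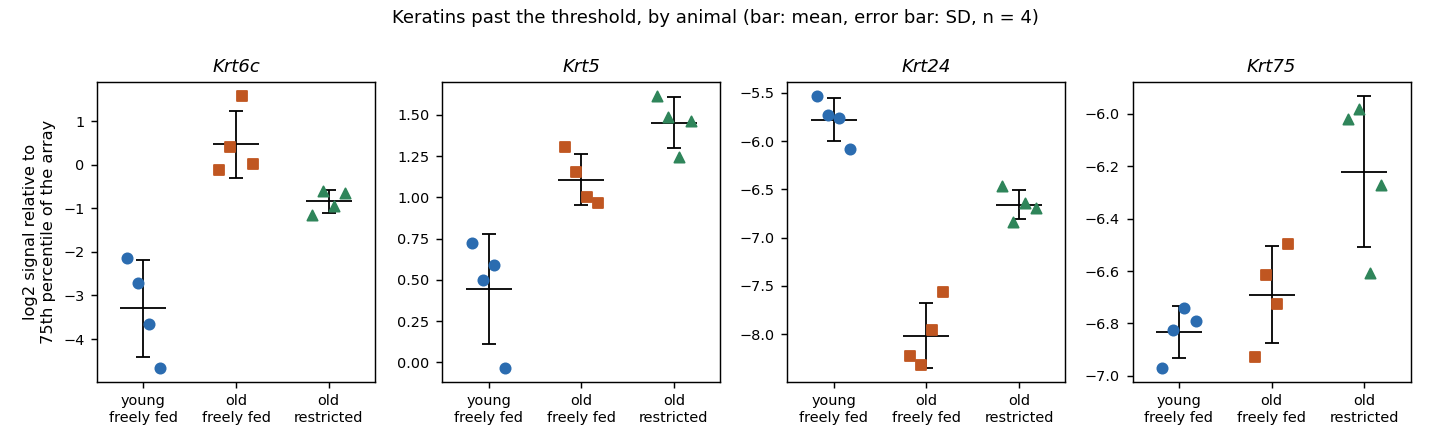
Levels of the 4 called keratins in each of the 12 animals, as log2 signal relative to the 75th percentile of the array, with the group mean (bar) and SD (error bar, n = 4). Krt6c and Krt5 of every old rat lie above those of every young rat, Krt24 of the 3 groups forms separate bands, and Krt75 of every restricted rat lies above that of every young rat.

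Krt6c, a type II keratin of the Krt6 group that is made after injury and in hyperproliferative epithelium, showed the largest rise with age of any tested keratin. In young rats, replicates 1 to 4 read -2.15, -2.72, -3.65 and -4.67. In old freely fed rats they read -0.11, 0.41, 1.58 and 0.01. Restricted rats read -1.16, -0.60, -0.94 and -0.64. On this probe, the brightest of 3, all restricted animals lay between the young and the old freely fed animals, and no 2 of the groups overlapped. The group means were -3.30 ± 1.10, 0.47 ± 0.77 and -0.84 ± 0.26 (SD, n = 4 each).

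The rise of Krt6c with age was 3.77 on the log2 scale (SE 0.49, 95% interval 2.69 to 4.84), or 13.6-fold, with a limma adjusted p of 0.0069. Restricted rats were 5.51-fold above young rats (log2 change 2.46, SE 0.49, limma adjusted p = 0.014). The difference between restricted and freely fed old rats was -1.31 (SE 0.49, 95% interval -2.38 to -0.23), which did not pass the test over all features (limma adjusted p = 0.16). Without old freely fed replicate 3, the animal with the highest Krt6c, that difference was -0.94 (limma adjusted p = 0.32).

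The second probe read -5.84, -6.37, -7.07 and -8.09 in young, -4.05, -3.90, -2.46 and -3.95 in old freely fed and -4.73, -4.31, -4.72 and -4.32 in restricted rats, and only 2 of the 4 young arrays were well above background for it. The third read -3.50, -3.72, -3.86 and -4.51, then -2.34, -2.27, -1.35 and -2.60, then -2.51, -2.44, -2.66 and -2.57, in the same order of groups. All 3 probes placed the young animals below every old animal, and on all 3 old freely fed replicate 3 was the highest and young replicate 4 the lowest of the 12 rats. The sizes differed: fitted as features of their own, the probes gave rises with age of 13.6-, 9.56- and 3.38-fold (limma adjusted p = 0.0074, 0.01 and 0.01). With the mean of the probes standing for the gene, the rise was 7.61-fold. Restricted against young rats, the 3 probes gave 5.51-, 5.0- and 2.56-fold (limma adjusted p = 0.014, 0.013 and 0.011). Restricted rats were below freely fed old rats by 2.48-, 1.91- and 1.32-fold, and none passed (limma adjusted p = 0.17, 0.27 and 0.40). On the third probe these 2 groups overlapped. The Krt6 genes are near-identical copies, Krt6a and Krt6b were not analysed here, and cross-hybridisation between them was not tested.

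Krt17, a type I keratin of stressed and of basal-like epithelium, was the other tested stress keratin. Young rats read -1.68, -1.28, -1.95 and -2.67, old freely fed rats -1.09, -1.54, -0.92 and -2.19, and restricted rats -1.84, -1.14, -1.43 and -0.88. The groups overlapped throughout, and the change with age was 0.46 (95% interval -0.26 to 1.18, limma adjusted p = 0.41), with 0.57 (limma adjusted p = 0.30) for restricted against young rats. Krt16, the usual type I partner of the Krt6 chains, was well above background on 0 of 12 arrays. The median change of the stress keratins, 2.12 with age, -0.60 with restriction and 1.52 for restricted against young, is thus the midpoint of Krt6c and Krt17 alone, against medians over all features of -0.05, 0.02 and -0.01.

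Krt5, the type II keratin of basal cells and the usual partner of Krt14, was next. Young rats read 0.72, 0.50, 0.59 and -0.03. Old freely fed rats read 1.31, 1.16, 1.003 and 0.97, and restricted rats 1.61, 1.49, 1.24 and 1.46. Every old rat lay above every young rat, while the 2 old groups overlapped. With age Krt5 rose 1.58-fold (log2 change 0.66, SE 0.15, 95% interval 0.35 to 0.98, limma adjusted p = 0.036). Restricted rats were 2.01-fold above young rats (log2 change 1.01, SE 0.15, limma adjusted p = 0.0032). Restricted against freely fed old rats, Krt5 differed by 0.34 (95% interval 0.03 to 0.66, limma adjusted p = 0.21). The call with age was lost when young replicate 2 or 3, old freely fed replicate 1, 2 or 3, or restricted replicate 2 was left out (limma adjusted p = 0.054 to 0.079), with a change of 0.60 to 0.71 in those fits. It was also lost with only the 2 groups fitted (limma adjusted p = 0.087) and without the brightness trend (limma adjusted p = 0.050).

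Krt14, the type I chain that pairs with Krt5, varied more within groups. It read 0.65, 0.98, 0.38 and -0.42 in young rats, 1.24, 0.87, 1.48 and 0.12 in old freely fed rats, and 0.36, 1.06, 0.82 and 1.41 in restricted rats. The groups overlapped, and the change with age was 0.53 (95% interval -0.22 to 1.27, limma adjusted p = 0.36), an interval that also holds the value of Krt5.

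Krt15, a type I keratin of basal cells and of epithelial stem cell zones, read 4.82, 4.97, 4.87 and 4.74 in young rats. Old freely fed rats read 5.24, 5.39, 5.37 and 4.93, and restricted rats 5.31, 5.14, 5.22 and 5.01. Only old freely fed replicate 4 fell within the range of the young animals, and all restricted rats lay above it. The changes against young rats were 0.38 with age (95% interval 0.16 to 0.60, limma adjusted p = 0.054) and 0.32 in restricted rats (limma adjusted p = 0.063), just short of the threshold. Without old freely fed replicate 4, Krt15 passed in both (limma adjusted p = 0.017 and 0.023). That animal had the lowest Krt15 of its group, so leaving it out raises the change with age by construction. In restricted against young rats, it enters only through the shared spread. With quantile scaling of all 12 arrays, Krt15 also passed in both (limma adjusted p = 0.029 and 0.033).

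The 3 basal keratins had a positive change with age in 3 of 3 cases, with a median of 0.53, and again in 3 of 3 cases for restricted against young rats, with a median of 0.51. Restricted against freely fed old rats, the median was -0.02, with 1 positive and 2 negative values. Tp63, the transcription factor of basal cells, was measured by a pair of probes that differed in direction: on the probe used in the test it was 1.25-fold lower in restricted than in young rats (limma adjusted p = 0.039), with group means of 2.64 in young and 2.32 in restricted rats, whereas the second probe had means of 1.45 and 1.83.

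Krt7, a type II keratin of all urothelial layers, had the smallest within-group SD of the 25 tested keratins (0.072), and 16.4% of tested features had a smaller one. Krt7 read 4.55, 4.72, 4.52 and 4.57 in young, 4.59, 4.55, 4.67 and 4.52 in old freely fed and 4.71, 4.69, 4.82 and 4.79 in restricted rats. Young and old freely fed rats were mixed, and restricted rats lay above all old freely fed rats. The change with age was -0.01 (95% interval -0.13 to 0.10, limma adjusted p = 0.91), and restricted against freely fed old rats it was 0.17 (95% interval 0.06 to 0.29, limma adjusted p = 0.092).

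Krt8 and Krt18, the type II and type I chains that pair in simple epithelia, were lowest in old freely fed rats. Krt8 read 1.68, 1.80, 1.72 and 1.49 in young, 1.54, 1.23, 1.51 and 1.72 in old freely fed and 1.75, 1.77, 1.81 and 1.83 in restricted rats. Krt18 read 5.74, 5.82, 5.54 and 5.59, then 5.46, 5.15, 5.38 and 5.54, then 5.57, 5.56, 5.63 and 5.63. For both genes every restricted rat lay above every old freely fed rat, and for both the lowest of the 12 animals was old freely fed replicate 2. Krt18 also did not overlap between young and old freely fed rats, with a change of -0.29 (95% interval -0.47 to -0.11, limma adjusted p = 0.064). That separation was very narrow: the lowest young rat read 5.540 and the highest old freely fed rat 5.536. The median SD between the spots of this probe was 0.033. Restricted against freely fed old rats, Krt8 differed by 0.29 (limma adjusted p = 0.10) and Krt18 by 0.21 (limma adjusted p = 0.16). Without old freely fed replicate 4, Krt8 passed in that comparison (limma adjusted p = 0.047), and Krt18 passed in the comparison of age (limma adjusted p = 0.049). That animal had the highest Krt8 and Krt18 of its group, so leaving it out enlarges both differences by construction.

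Krt19, a small type I keratin of simple and basal cells, read 3.79, 3.80, 3.71 and 3.69 in young, 3.96, 3.92, 3.97 and 3.71 in old freely fed and 3.88, 4.004, 3.99 and 3.91 in restricted rats. Restricted rats lay above all young rats, with a change of 0.20 (95% interval 0.07 to 0.33, limma adjusted p = 0.055). The change with age was 0.14 (limma adjusted p = 0.16). Without old freely fed replicate 4, whose Krt19 lay among the young values, both passed (limma adjusted p = 0.021 and 0.044). Leaving out the lowest animal of its group raises the change with age by construction. In restricted against young rats, that animal enters only through the shared spread. Neither pass is therefore added evidence of a change.

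Krt20, the type I keratin of umbrella cells, read 2.09, 2.34, 1.95 and 1.53 in young rats and 1.68, 2.03, 2.20 and 1.76 in restricted rats. Old freely fed rats read 2.02, -0.30, 1.55 and 1.68. Apart from replicate 2 at -0.30 the animals of the 3 groups overlapped. The change with age was -0.74 (95% interval -1.62 to 0.14, limma adjusted p = 0.28), and without old freely fed replicate 2 it was -0.23 (limma adjusted p = 0.53). In that animal the summed level of the 12 tested urothelial markers was the lowest of the old freely fed group (7.94, against 8.08 to 8.10 in the others) and that of the 5 tested mesothelial markers the highest (3.67, against 2.51 to 2.85). Its score on principal component 1 of all features was 51.9, with the other 11 arrays between -29.0 and 19.0. The part of these differences in the keratin values was not tested.

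The median change of the 5 simple-epithelial keratins was -0.18 with age, with 1 positive and 4 negative values. It was 0.21 for restricted against freely fed old rats, with 5 positive values, and 0.12 for restricted against young rats, with 3 positive and 2 negative values. The log2 of the summed linear signal of the 5 genes was 6.49 to 6.72 in young, 6.27 to 6.50 in old freely fed and 6.57 to 6.67 in restricted rats. The same sum over the 3 basal keratins was 4.83 to 5.12, 5.07 to 5.53 and 5.24 to 5.46. The sum over Krt17 and Krt6c, the latter by its brightest probe, was -2.35 to -0.83, 0.29 to 1.81 and -0.46 to 0.24. In this sum alone all 3 groups were apart, the old groups only narrowly. Krt17 by itself overlapped throughout, and on the third Krt6c probe the old groups overlapped. Sums with the other Krt6c probes were not made, so the separation is not a trait of the stress keratins as a list.

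**Figure D2:**
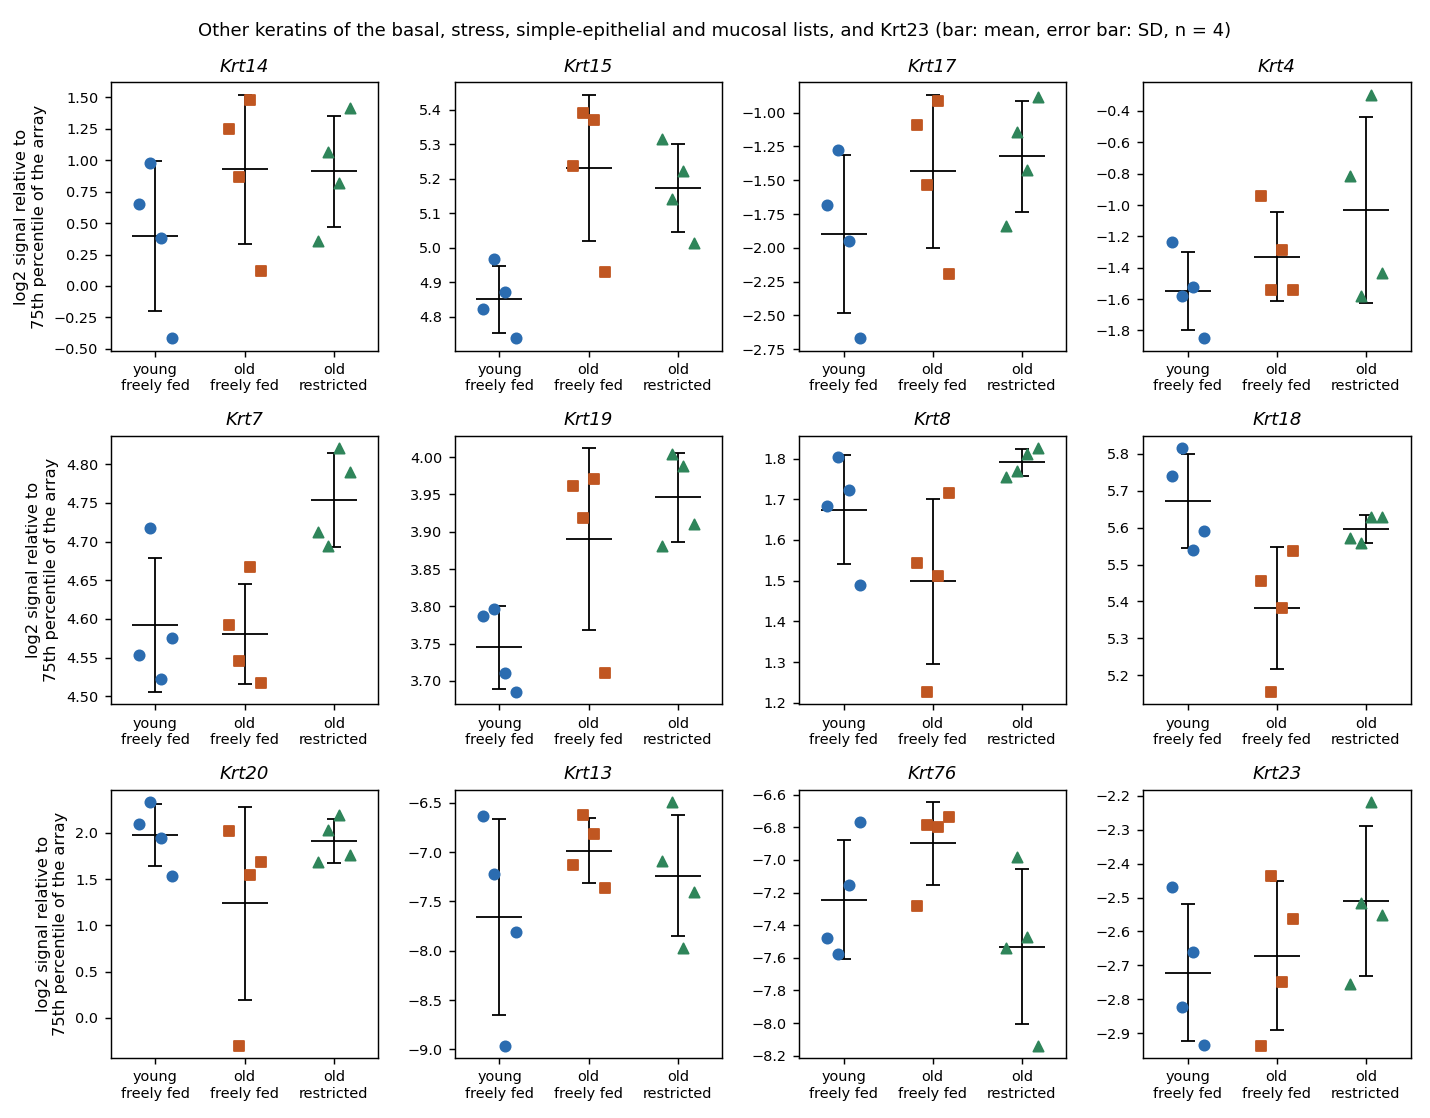
Levels of 12 further keratins in each animal, as log2 signal relative to the 75th percentile of the array, with the group mean (bar) and SD (error bar, n = 4); each panel has its own axis. Krt15 and Krt19 of restricted rats lie above those of young rats, Krt7, Krt8 and Krt18 of restricted rats lie above those of old freely fed rats, and 1 old freely fed rat has Krt20 at -0.30.

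Krt24, a type I keratin of less defined role known from cornea and differentiating keratinocytes, differed between all 3 groups. It read -5.53, -5.73, -5.76 and -6.08 in young rats, all well above background. Old freely fed rats read -8.22, -8.32, -7.95 and -7.57, with 0 of 4 arrays well above background. Restricted rats read -6.47, -6.84, -6.64 and -6.69, with 3 of 4 arrays well above background. The 3 groups formed separate bands, with the restricted rats between the others. For the sizes, each dim array was set at the higher of its own signal and the lowest signal of any probe well above background there. Old freely fed rats were then 4.51-fold lower than young rats (limma adjusted p = 0.001). Restricted rats were 2.45-fold above freely fed old rats (limma adjusted p = 0.0041) and 1.84-fold below young rats (log2 change -0.88, SE 0.18, limma adjusted p = 0.016). These sizes are not strict lower bounds. Krt24 was dim in old freely fed replicate 4 at -7.57, though another probe on that array was well above background at -7.85.

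The size of the Krt24 difference, also with dim arrays set in this way, depended on how background was removed. With normexp correction of the median spot signals, which adds an offset, the fitted difference with age was -0.84, and with quantile scaling as well it was -0.72. With restriction it was 0.51 and 0.39 in the same fits. These are neither exact sizes nor bounds, since old freely fed rats were not well above background. Both calls held in the 22 alternatives in which Krt24 was tested. Restricted against young rats, the call was lost with quantile scaling (limma adjusted p = 0.052). Negative control spots were darkest in old freely fed rats, as given above, and their part in the dim values was not tested. Krt24 passed the filter through the young group, where it was highest. Its level was low there too, with a mean of -5.78, where the lowest signal well above background on the young arrays was -7.14 to -6.89. Its neighbours on chromosome 10 are Krt222, which was not analysed here, and Krt25, which read -4.77 to -4.35 in young, -4.79 to -4.61 in old freely fed and -4.94 to -4.48 in restricted rats, with overlapping groups.

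Krt75, a type II keratin of the hair companion layer, read -6.97, -6.82, -6.74 and -6.79 in young rats, with 1 of 4 arrays well above background. Old freely fed rats read -6.93, -6.61, -6.73 and -6.50, and restricted rats -6.02, -5.98, -6.61 and -6.27. All restricted rats lay above all young rats, while old freely fed rats overlapped both groups. Restricted rats were 1.53-fold above young rats (log2 change 0.61, SE 0.16, limma adjusted p = 0.035). The call held in 10 of 22 alternatives. It was lost when any young replicate, restricted replicate 1, 2 or 4, or old freely fed replicate 3 was left out (limma adjusted p = 0.051 to 0.092), with only the 2 groups fitted (limma adjusted p = 0.056), and with normexp, where the change was 0.18 (limma adjusted p = 0.23).

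Among keratins of the suprabasal layers of squamous mucosa, Krt4 was well above background on every array. It read -1.24, -1.58, -1.52 and -1.85 in young, -0.95, -1.54, -1.29 and -1.54 in old freely fed and -0.81, -1.58, -0.29 and -1.43 in restricted rats. The groups overlapped, and the change was 0.22 with age (limma adjusted p = 0.62) and 0.52 for restricted against young rats (95% interval -0.04 to 1.07, limma adjusted p = 0.22).

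Krt13, the type I partner of Krt4, was near the detection limit. It was well above background on 1 young, 4 old freely fed and 2 restricted arrays. Young rats read -6.64, -7.22, -8.96 and -7.81, old freely fed rats -7.13, -6.62, -6.82 and -7.37, and restricted rats -7.09, -6.49, -7.97 and -7.40. The groups overlapped, and the change with age was 0.67 (95% interval -0.31 to 1.65). Krt76, a keratin of the palate and other oral mucosa, was well above background on 0 young, 4 old freely fed and 1 restricted arrays. It read -7.48, -7.58, -7.16 and -6.77, then -7.28, -6.78, -6.80 and -6.73, then -7.54, -6.98, -7.47 and -8.14, with overlapping groups. Both passed the filter only through old freely fed rats, and the median change of the 3 mucosal keratins (0.35 with age, -0.25 with restriction, 0.42 for restricted against young) rests in part on values at background.

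The 10 other tested keratins belong to epidermis (Krt1, Krt80) or to hair and its root sheath (Krt25, Krt28, Krt33a, Krt33b, Krt81, Krt84, Krt87), or have a less defined role (Krt23). Of these, 0 of 10 were called in any comparison. Their changes with age ran from -0.42 (Krt28, limma adjusted p = 0.12) to 0.08 (Krt1). Restricted against freely fed old rats, they ran from -0.40 (Krt33a, limma adjusted p = 0.31) to 0.25 (Krt81). Restricted against young rats, they ran from -0.53 (Krt80, limma adjusted p = 0.097) to 0.21 (Krt23). Krt84 was well above background on 0 young, 4 old freely fed and 2 restricted arrays. The 19 keratins that were not tested were well above background on 0 arrays in 15 cases, on 1 array in 3 cases and on 2 arrays in 1 case, with group means between -10.3 and -7.17.

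**Figure D3:**
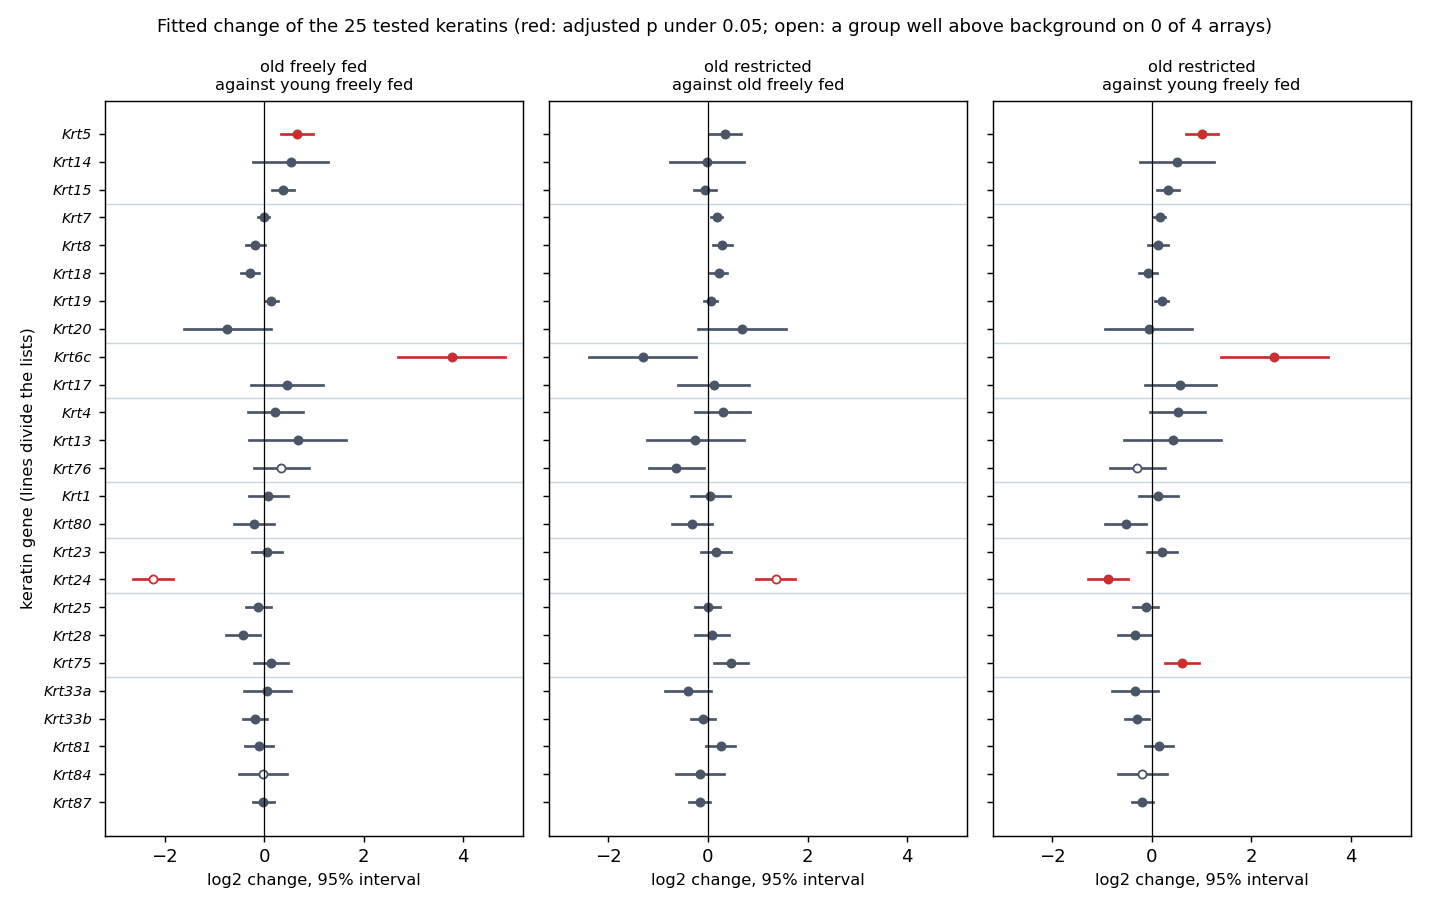
Fitted log2 change of each of the 25 tested keratins with its 95% interval in the 3 comparisons, ordered by list from basal at the top to hair shaft at the bottom, with red for adjusted p under 0.05 and an open point where a group was well above background on 0 of 4 arrays, so that the point has no exact size. With age 3 keratins are red, with Krt6c at 3.77, Krt5 at 0.66 and Krt24 open; 1 is red between the old groups and 4 between restricted and young rats.

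Counted over the 25 tested keratins, 2 were higher and 1 lower with age, that is 12% of them, where 1.63% of all features were called higher and 2.1% lower. Restricted against freely fed old rats, 1 was higher and 0 lower (4%), where 1.62% and 2.02% of features were. Restricted against young rats, 3 were higher and 1 lower (16%), where 3.19% and 5.99% were. Krt24 is in each of these counts and passed the filter through the young group, where it was highest. Krt75, in the last count, passed it through the old groups, with 1 young array well above background. With only probes well above background on all 12 arrays, 2, 0 and 2 keratins were called. Over all features so filtered, the calls were 782, 634 and 1772. At an unadjusted p under 0.05 the counts were 7, 8 and 10 keratins, where 24.6%, 20.6% and 26.1% of all features passed. The median change over the 25 keratins was 0.05, 0.06 and 0.13, close to the medians over all features given above. Groups did not overlap for 4 keratins with age, where 15.1% of features did not overlap, for 5 between the old groups (14.7%) and for 7 between restricted and young rats (18%). The counts without overlap with age and between the old groups are near those shares. With age, Krt18 is among the 4 only by the narrow margin given above.

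Krt14 and Krt17 followed each other from animal to animal, a pattern picked out after the values were seen. In all 3 groups the 4 animals had the same order for both genes. Their within-group SDs were 0.55 and 0.53, whereas the difference between their levels had a within-group SD of 0.045 and lay between 2.20 and 2.41 in the 12 rats. Of the 300 pairs among tested keratins, 4 had the same order in all 3 groups, and the next smallest SD of a difference was 0.078, for Krt8 and Krt18, whose own SDs were 0.14 and 0.12. Krt14 and Krt5, the usual filament partners, did not keep a common order. Krt14, Krt16 and Krt17 are close relatives that lie near each other on chromosome 10, with Krt9 and Krt42 on either side, and whether the Krt17 probe also binds Krt14 RNA was not tested.

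**Figure D4:**
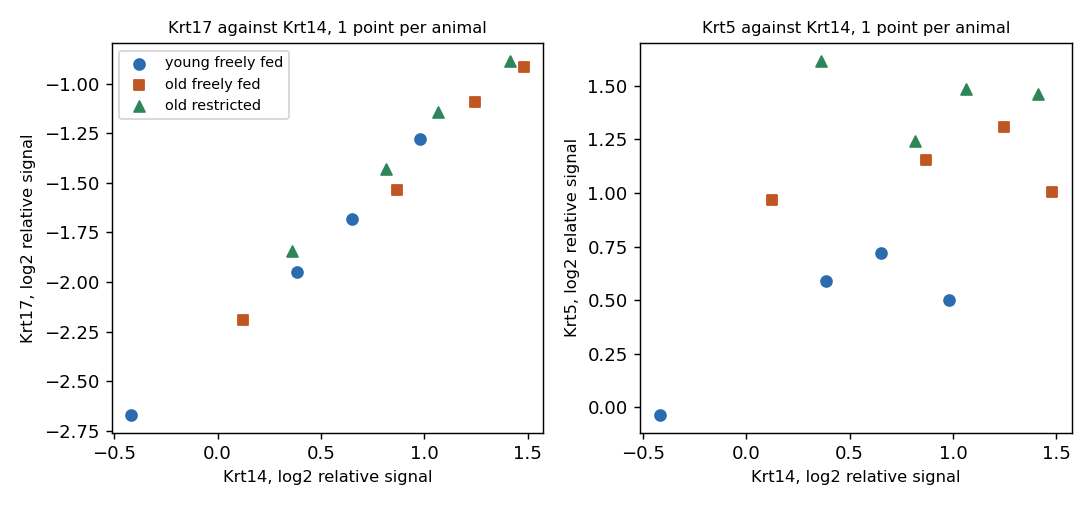
Level of Krt17 (left) and of Krt5 (right) against that of Krt14, with 1 point for each of the 12 animals, on log2 axes of signal relative to the 75th percentile of the array. The points of Krt17 lie along 1 line through all 3 groups, with differences of 2.20 to 2.41, while in Krt5 the young rats lie below the old rats whatever their Krt14.

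Genes that anchor keratin filaments or join the cells that hold them were compared from a separate list. Of 11 tested members, 0 were called with age or between the old groups, and 3 were higher in restricted than in young rats, where 3.19% of all features were. These were Lamb3, a laminin-332 chain of the basement membrane (1.34-fold, limma adjusted p = 0.02), Pkp3, a desmosomal plaque protein (1.24-fold, limma adjusted p = 0.038), and Perp, a desmosomal membrane protein (1.198-fold, limma adjusted p = 0.026). Desmosomal cadherins of stratified epithelium were dim: Dsc3 was not well above background on any array, and Dsg3 was so on 2 old freely fed arrays.

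Of 13 tested genes of the cornified envelope and of squamous cells, 2 were higher with age, where 1.63% of all features were. Ly6d, a surface protein of stratified epithelium, was well above background on 4 old freely fed arrays and on 0 young and 0 restricted arrays, so that it entered the test through the group where it was high. With dim arrays set as for Krt24, Ly6d was 1.81-fold higher in old freely fed than in young rats (limma adjusted p = 0.011). It was 2.7-fold lower in restricted than in freely fed old rats (limma adjusted p = 0.049), the 1 call of the list between the old groups. Neither size is exact or a strict lower bound. Lypd3, a related surface protein, was 1.29-fold higher with age (limma adjusted p = 0.02) and 1.43-fold higher in restricted than in young rats (limma adjusted p = 0.0017). Tgm3, a transglutaminase of the cornified envelope, was 1.36-fold lower in restricted than in young rats (limma adjusted p = 0.026). Of all features, 2.02% were lower in restricted than in freely fed old rats. Against young rats, 3.19% were higher and 5.99% lower in restricted rats. The median change of this list was 0.36 with age (10 positive and 3 negative values), -0.27 between the old groups (4 and 9) and -0.22 for restricted against young rats (5 and 8).

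Markers of other cells were measured beside the keratins, and their part in the keratin values was not tested. Of 12 tested urothelial markers, 0 were called with age or between the old groups, and their summed level was 8.10 to 8.21 in young, 7.94 to 8.10 in old freely fed and 8.12 to 8.17 in restricted rats. Restricted against young rats, Cldn4, a tight junction protein, was 1.19-fold higher and Tp63 lower, as given above, where 3.19% of all features were higher and 5.99% lower. Of 10 smooth muscle markers, 3 were lower with age (Myh11, Mylk, Synm), where 2.1% of all features were, and 0 were called between the old groups. In restricted against young rats, 4 were lower (Des, Mylk, Synm, Lmod1), where 5.99% of all features were. Their sums were 9.06 to 9.15, 8.53 to 8.99 and 8.75 to 8.96. Tagln, a member of these sums, was well above background on only 3 old freely fed arrays. Its group means were 6.30, 4.03 and 6.06, and its part in the sums was not tested. Of 5 mesothelial markers 0 were called, with sums of 2.13 to 3.103, 2.51 to 3.67 and 2.40 to 2.77. Of 4 tested markers of the male glands, Andpro and Klk1 were lower in both old groups than in young rats. Of all features, 2.1% were lower with age and 5.99% were lower in restricted than in young rats. Andpro was well above background on 4 young, 1 old freely fed and 0 restricted arrays, so it entered the test through the group where it was high. The sums were -2.52 to -1.03 in young, -3.74 to -3.14 in old freely fed and -3.53 to -3.18 in restricted rats. The probes of Pbsn, Svs4, Svs5, Svs6, Spink1, Msmb and Oprpn were well above background on 0 arrays. Of 3 skin and hair markers, Msx2, a transcription factor of hair and other epithelia, was 1.33-fold higher in restricted than in young rats (limma adjusted p = 0.013), where 3.19% of all features were higher. The sums of this list were -0.22 to 0.12, -0.02 to 0.18 and 0.28 to 0.48.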

How the data were processed

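Total RNA of 12 bladders was labelled with Cy3 and hybridised to 1-colour arrays, per the labels' protocols. The deposited values are spot intensities, background-subtracted and detrended by Agilent Feature Extraction 10.7 but not scaled between arrays, per the file headers, which name array design 028279. For normexp, the deposited median signal and background intensities were used, since the files hold no mean signal. Here, log2 processed signal minus the 75th percentile over 58717 spots was averaged over the spots of each of 30367 probes. Outlier spots were dropped, except in 91 averages where a probe kept none without them, and no spot was saturated. Well above background means that more than 0.5 of a probe's spots carried that mark. Probes so marked in a whole group of 4 were kept (23089), and the brightest stood for a gene, giving 20425 features. RefSeq accessions were matched to names of the GRCr8 assembly (17998 probes). All 12 arrays entered 1 linear model in limma 3.58 in R 4.3 (eBayes with a brightness trend, two-sided, 9 residual degrees of freedom and 2.72 from the prior, Benjamini-Hochberg adjustment). Group sums are log2 of summed linear signals. The number of animals, 4 a group, limits the precision.

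The keratins and all lists were chosen with earlier results of these data known. Values in every animal were given for called keratins and for basal, simple-epithelial, mucosal and stress members well above background on all 4 arrays of a group, and called members of other lists were named. A called change of a probe dim on every array of a group was given with its dim arrays set as described for Krt24. The exception was Andpro, for which no size was given. Alternatives were other scalings, background corrections, filters, probes and models, and leaving out each animal. The limma fit was also run on data simulated from the mean and within-group SD of each feature. With 50 features changed in old freely fed rats at each size, 31 were recovered at 1.5-fold and 46 at 2-fold. Among unchanged features, 10 were called. A change near 1.5-fold can thus be missed. Replicates are numbered 1 to 4 as in the source names of the labels, and the numbers at the end of the titles differ from these. The source name numbers did not pair the samples: deviations of same-numbered animals correlated at -0.19 to 0.10.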

Additional observations from a re-analysis of the deposited data

Results flagged for a closer look

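Within groups of 4 animals, 75 sets of values (25 keratins in 3 groups) were searched for an animal far from the rest. In 2 sets 1 was found, where chance gives about 1 in 20, so the number found is no more than chance gives. Krt28, a root sheath keratin with 1 spot on each array, read -5.95 in old freely fed replicate 1, against -6.09 to -6.08 in the other 3. Krt76, an oral mucosa keratin, read -7.28 in the same animal, against -6.80 to -6.73 in the other 3. Neither gene was called in any comparison.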

How the results depend on the processing

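Over 23 alternatives (22 for Krt24 and Krt75, which are not on all 12 arrays), the calls of Krt6c with age and for restricted against young rats, of Krt5 for restricted against young rats, and of Krt24 with age and with restriction all held. Krt6c was 7.61- to 17.8-fold higher with age over these. Krt5 with age passed in 15 of 23 (limma adjusted p = 0.012 to 0.087). No called change turned its direction in any alternative run. With no filter on dim probes, 8 keratins were called with age (3 higher, 5 lower) and 8 for restricted against young rats; among them were Krt26, Krt40 and Krt85, which were dim in all groups and lower in both old groups. Without that filter Krt16 enters the stress list, whose median became 0.46 with age, 0.11 with restriction and 0.57 for restricted against young rats. With only probes well above background on all 12 arrays, Krt24 and Krt75 are not tested, and 0 keratins were called between the old groups and 2 between restricted and young rats. With quantile scaling, 6 keratins were higher and 0 lower for restricted against young rats, against 3 and 1. Leaving out 1 animal at a time, 2 to 6 keratins were called with age, 1 to 2 between the old groups and 3 to 6 between restricted and young rats, the highest counts all without old freely fed replicate 4; the median of the simple-epithelial keratins with age was -0.25 to -0.085, the latter without old freely fed replicate 2. Over all features, the count with age was 760 and ran from 94 (only the 2 groups fitted) to 3568 (no filter). Between the old groups it was 744 and ran from 268 to 1024, and between restricted and young rats it was 1874 and ran from 737 to 3259. With the replicate block, though the numbers did not pair the animals, 4, 1 and 6 keratins were called. The normexp alternatives on median signals were chosen after seeing the data, because mean signals were not in the files. Sizes for keratins near background, among them Krt13, Krt24, Krt75 and Krt76, are not exact.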
